A study of Mus musculus with 6 samples.

Results

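Solute carrier (SLC) genes encode membrane proteins that move amino acids, sugars, metals, ions, nucleotides, vitamins and lipids across the plasma membrane and the membranes of organelles. The genes examined here were all rows of a mouse gene table whose symbol begins with an SLC family number, letter and member number and that reached 1 TPM in 3 or more of the 6 libraries. TPM is a transcript level scaled for gene length and for the total of the library. By this rule 212 genes of 42 families were chosen from 269 SLC rows, among 14366 genes listed and 12300 that met the same minimum. The rule itself uses levels and no difference between the groups, but it was set with earlier results of these data known, and a gene high in only one group can meet it. The members included 4 genes that carry an SLC name and encode no transporter, so 208 encode carriers or their subunits, and these were put in 12 classes by main substrate.

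RNA-seq libraries had been made from the mesonephroi of male mice at embryonic day 16.5, tissue around the Wolffian duct that gives rise to the epididymis, dissected with its mesonephric tubules. The 3 Gata2cKO samples had the genotype Osr2Cre+;Gata2-flox/flox and the 3 control samples Osr2Cre+;Gata2-flox/+, so both groups carried the recombinase and at least 1 floxed allele. Recombination is limited to cells in which Osr2-Cre is or has been active and to their descendants. Osr2-Cre is known to be active in urogenital mesenchyme, while whole tissue was sequenced. The labels do not say whether samples came from separate embryos, so p-values speak only of the spread among the 6 samples. In whole tissue fewer cells of a type and less RNA per cell cannot be told apart. Gata2, the targeted transcription factor gene, was at 431, 529.8 and 416 TPM in Gata2cKO replicates 1 to 3, against 384, 464 and 546 TPM in control replicates 1 to 3 (limma log2 fold change -0.01 with SE 0.15, adjusted p = 0.968). This is a value for the gene as a whole and is no check of the floxed segment, so directions rest on the labels.

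Each library listed between 12122 and 12301 genes at 1 TPM or more, and read depth is unknown. Control replicate 1 stood apart from the other 5, with mitochondrially encoded transcripts at 21.9% of its TPM against 13.2% to 16.3% in the others. Marker lists showed both compartments of the tissue. Duct and tubule epithelium markers summed to between 1734 and 1812 TPM in Gata2cKO and between 1348 and 1515 TPM in control libraries, and 4 of 16 tested markers rose and 0 fell. Mesenchyme markers summed to between 10356 and 12862 TPM in Gata2cKO and between 9419 and 11661 TPM in control libraries, and 1 of 17 rose and 6 fell. Mesothelium markers summed to between 947 and 1030.0 TPM in Gata2cKO and between 695 and 771 TPM in control libraries (4 of 11 rose), endothelium markers to between 568 and 679 TPM in Gata2cKO and between 404 and 534 TPM in control libraries (3 of 13 rose) and mast cell markers to between 287 and 310.1 TPM in Gata2cKO and between 103 and 149.5 TPM in control libraries (3 of 7 rose). Renal proximal tubule markers summed to between 44.9 and 52.9 TPM in Gata2cKO and between 29.7 and 35.4 TPM in control libraries (3 of 8 rose). Of smooth muscle markers 3 of 7 fell, with sums between 779.9 and 859 TPM in Gata2cKO and between 1006 and 1117 TPM in control libraries. Beside the marker counts here and below, 5.73% of all tested genes rose and 1.74% fell in the same test. The part of these marker shifts in the SLC values below was not tested.

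SLC carriers work in a few ways that recur in the results. Plasma membrane carriers of amino acids mostly use the sodium gradient or exchange one substrate for another. Zinc enters the cytosol through the SLC39 (ZIP) family and leaves it through the SLC30 (ZnT) family. The SLC25 family spans the inner mitochondrial membrane, and the SLC35 family brings nucleotide sugars into the endoplasmic reticulum and Golgi. In the duct of the male tract, carriers of ions, bicarbonate and small organic molecules are known for setting the fluid in which sperm mature after birth.

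Calls fell in 14 of the 42 families, with 10 of the 20 called members alone in their family and the others in 4 families with more than 1 call. Slc22a3, an organic cation carrier, and Slc38a5, a glutamine carrier, fell to 0.205 and 0.324 of their control level, while Slc26a7, an anion exchanger, rose 2.50-fold and the mitochondrial carrier Slc25a30, the zinc importer Slc39a4, the lactate carrier Slc16a1 and the amino acid carriers Slc6a17 and Slc1a4 rose between 1.56-fold and 1.86-fold. Of the 212 members, 15 were higher and 5 lower in Gata2cKO than in control mesonephroi at an adjusted p under 0.05, in a limma test fitted on log2(TPM + 1) of all 12300 genes. That is 9.43% of the members, beside 7.47% of all tested genes in either direction, 5.73% higher and 1.74% lower. The share is near that of all genes. Log2 fold changes of the members lay between -1.26 and 1.04 with a median of 0.07, beside 0.05 for all tested genes, and 137 of 212 were positive (64.6%, beside 59.5% of all). Only 3 members, Slc38a5, Slc18a3 and Slc22a3, differed by 1 or more on this scale (1.42%, beside 0.902% of all). Under median-of-ratios scaling 9 members were higher and 6 lower, the members' median was 0.02 and 52.8% were positive, beside 49.4% of all tested genes. Without Gata2cKO replicate 2 the members' median was 0.03, beside 0.03 for all tested genes. Without Gata2cKO replicate 1, 2 or 3 in turn, 2, 4 and 3 were higher and 1, 2 and 1 lower. Without control replicate 1, 2 or 3, 25, 5 and 6 were higher and 6, 2 and 1 lower.

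**Figure D1:**
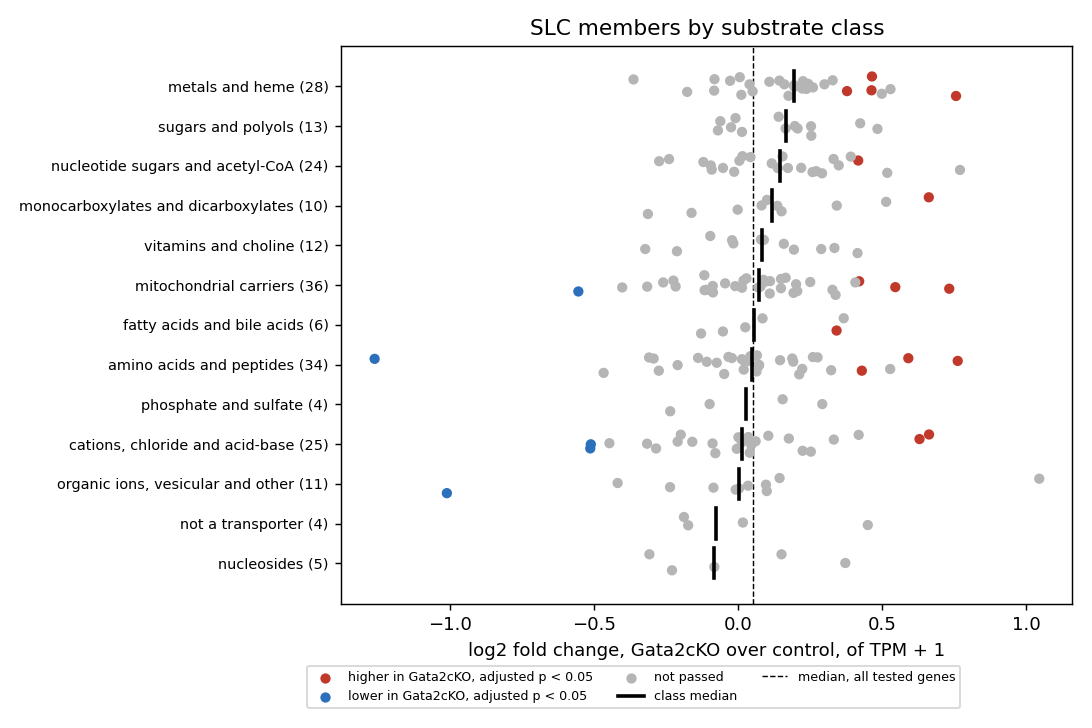
Log2 fold change of TPM + 1, Gata2cKO over control, for each of the 212 SLC members, in rows by substrate class with the number of members in brackets. Red and blue points passed the threshold as higher and lower, black bars are class medians and the dashed line is the median of all tested genes (0.05); most members lie between -0.5 and 0.5, and Slc38a5 and Slc22a3 are the 2 blue points farthest left.

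The authors' deposited table, from a test of their own, gives 20 members higher and 13 lower at an adjusted p under 0.05 (15.6% of members, beside 14.1% of all tested genes, 7% higher and 7.07% lower). It shares 19 of the 20 calls with limma, all in the same direction, and lacks Slc27a4. Its 14 other members were 6 higher and 8 lower. Groups did not overlap for 53 members higher and 22 lower (35.4%, beside 33.9% of all tested genes, 23.4% higher and 10.5% lower).

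Slc22a3 and Slc38a5 were the members that fell most in fold. Slc16a1 and Slc25a5 were members that rose and were picked because they hold a GATA-box string of the 2 searched for. The promoters of these 4 changed members are therefore shown first. Each is a RefSeq window on GRCm38.p6 of 250 bases before to 50 after the transcription start, in lower case with matches to AGATAA or TGATAA on either strand in capitals. The 2 strings differ in their first letter alone, so no match counts for both.
Slc22a3, chr17:12507655-12507954, minus strand: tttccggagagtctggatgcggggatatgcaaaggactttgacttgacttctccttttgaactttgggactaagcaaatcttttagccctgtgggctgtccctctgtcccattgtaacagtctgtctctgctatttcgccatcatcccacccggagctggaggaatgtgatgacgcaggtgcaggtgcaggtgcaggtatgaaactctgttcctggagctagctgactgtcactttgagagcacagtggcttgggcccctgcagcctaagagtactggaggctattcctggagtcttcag
Slc38a5, chrX:8271131-8271430, plus strand: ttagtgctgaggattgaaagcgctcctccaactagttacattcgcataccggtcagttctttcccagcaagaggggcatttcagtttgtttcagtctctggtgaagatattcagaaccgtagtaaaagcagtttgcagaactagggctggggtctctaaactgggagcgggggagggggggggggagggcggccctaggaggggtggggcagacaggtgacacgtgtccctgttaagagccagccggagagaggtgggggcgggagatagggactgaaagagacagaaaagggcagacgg
Slc16a1, chr3:104638414-104638713, plus strand: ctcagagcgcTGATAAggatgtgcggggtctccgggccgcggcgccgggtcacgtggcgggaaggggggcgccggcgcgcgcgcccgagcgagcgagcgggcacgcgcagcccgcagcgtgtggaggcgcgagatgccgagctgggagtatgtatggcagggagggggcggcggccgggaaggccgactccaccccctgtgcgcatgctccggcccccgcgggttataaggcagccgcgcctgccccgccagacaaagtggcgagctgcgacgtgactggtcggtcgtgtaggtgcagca
Slc25a5, chrX:36795347-36795646, plus strand: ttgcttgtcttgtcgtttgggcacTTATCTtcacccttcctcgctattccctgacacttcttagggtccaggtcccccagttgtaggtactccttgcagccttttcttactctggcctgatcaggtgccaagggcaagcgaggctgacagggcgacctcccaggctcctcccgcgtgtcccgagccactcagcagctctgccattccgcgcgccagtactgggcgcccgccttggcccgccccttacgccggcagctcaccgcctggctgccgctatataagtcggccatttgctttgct
The table held 216 windows for 160 of the 212 members. A match stood in 13.4% of the members' windows, in 18.6% of all 32851 windows and in 4 of the 20 windows of the 14 changed members found there (20%). The 4 windows belong to Slc16a1, Slc25a5, Slc38a4 and Slc39a10, genes that rose. The windows of Slc22a3 and Slc38a5 hold neither string. The Slc38a5 window lies almost wholly inside the gene interval given for it below, so sequence before that interval was hardly searched. The Slc38a5 window does hold AGATAG, left in lower case, which differs from AGATAA in its last letter. Strings ending in G, AGATAG and TGATAG, were not searched for, so absence of a match does not mean absence of every GATA box. A match is a description of letters and not a binding site.

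Slc22a3 encodes the organic cation transporter OCT3, which takes up monoamines such as noradrenaline and histamine outside neurons, and which is imprinted in the mouse placenta. It lies on chromosome 17, 12418960 to 12507704 (GRCm38). Its level was 0.392, 0.394 and 0.275 TPM in Gata2cKO replicates 1 to 3, against 1.62, 1.69 and 1.87 TPM in control replicates 1 to 3. All 3 Gata2cKO libraries were below all 3 controls, and below 1 TPM, so the gene met the 1 TPM minimum only through the control group, where it is high. The means were 0.354 ± 0.0684 TPM in Gata2cKO and 1.72 ± 0.126 TPM in control libraries (SD, n = 3 each), 4.88-fold lower in Gata2cKO (limma log2 fold change -1.01 with SE 0.09, adjusted p = 0.00362), the smallest adjusted p among the members. The call stood whichever of the 6 libraries was left out (adjusted p up to 0.0317, with Gata2cKO replicate 1 left out). The authors' deposited table gives a log2 fold change of -2.35, a larger drop, since the added 1 TPM shrinks fold changes of low genes. The annotation places the gene for plasminogen, Plg, across part of the same interval on the opposite strand. Plg was not analysed here.

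The other organic ion, vesicular and creatine carriers did not pass, so 1 of 11 in this class was called (9.09%, beside 7.47% of all tested genes). The most abundant, Slc22a17, a receptor for the siderophore-binding protein lipocalin 2, was at 238, 279 and 230.0 TPM in Gata2cKO replicates 1 to 3, against 267, 351 and 390.0 TPM in control replicates 1 to 3 (limma log2 fold change -0.42 with SE 0.15, adjusted p = 0.124). Control replicate 1 lay among the Gata2cKO values. The authors' deposited table calls Slc22a17 lower (log2 fold change -0.50, adjusted p = 0.00314). Slc18a3, the vesicular acetylcholine transporter, had the highest positive log2 fold change of all members without passing, at 3.89, 5.82 and 2.61 TPM in Gata2cKO replicates 1 to 3, against 1.20, 0.943 and 2.19 TPM in control replicates 1 to 3 (limma log2 fold change 1.04 with SE 0.26, adjusted p = 0.0526). Its 3 Gata2cKO values lay above the controls and spread more than 2-fold among themselves, and it is named because of that size. Neuronal and glial markers summed to between 32.3 and 38.2 TPM in Gata2cKO and between 22.5 and 32.0 TPM in control libraries. Of 6 tested markers 2 rose, the glial genes S100b and Fabp7, and the neuronal genes Snap25 and Elavl4 stayed under 1 TPM on average in both groups. Their part in the level of Slc18a3 was not tested. Slc6a8, which takes up creatine, was at 55.7 ± 8.31 against 51.7 ± 1.25 TPM in Gata2cKO and control libraries (limma adjusted p = 0.607). Slc22a5, which takes up carnitine, was at 11.5 ± 1.19 against 11.2 ± 1.22 TPM (limma adjusted p = 0.865).

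Among carriers of amino acids and peptides, 3 of 34 members rose and 1 fell (11.8% called, beside 7.47% of all tested genes). The class had a median log2 fold change of 0.05 and summed to 625, 637 and 596 TPM in Gata2cKO replicates 1 to 3 and 580.0, 606 and 621 TPM in control replicates 1 to 3. These sums overlapped between the groups.

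Slc38a5, a glutamine and glycine carrier of system N on the X chromosome (8271133 to 8280179), fell most on the log2(TPM + 1) scale of all members. It was at 1.27, 2.77 and 1.62 TPM in Gata2cKO replicates 1 to 3, against 6.27, 4.46 and 6.76 TPM in control replicates 1 to 3. The groups did not overlap, although Gata2cKO replicate 2 was more than 2-fold above replicate 1. The means were 1.89 ± 0.787 TPM in Gata2cKO and 5.83 ± 1.21 TPM in control libraries (SD, n = 3 each), 3.09-fold lower in Gata2cKO (limma log2 fold change -1.26 with SE 0.21, adjusted p = 0.0178). The call was lost without Gata2cKO replicate 1 or 3 and without control replicate 3, with adjusted p between 0.0564 and 0.0728. Of 9 SLC38 members, 3 had all Gata2cKO values below all controls and 2 above, beside 10.5% and 23.4% of all tested genes. Slc38a6 was another of the lower ones, at 2.34, 2.63 and 2.28 TPM in Gata2cKO replicates 1 to 3, against 3.50, 3.02 and 3.04 TPM in control replicates 1 to 3 (limma log2 fold change -0.29 with SE 0.09, adjusted p = 0.0946), and the authors' deposited table calls it lower (log2 fold change -0.46, adjusted p = 0.0151).

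Slc38a4, a system A carrier of small neutral amino acids that is imprinted in the mouse, was at 22.7, 22.2 and 21.2 TPM in Gata2cKO replicates 1 to 3, against 15.4, 16.2 and 16.7 TPM in control replicates 1 to 3. All Gata2cKO values were above all controls (1.37-fold higher; limma log2 fold change 0.43 with SE 0.08, adjusted p = 0.0212), and the call held in 1 of the 6 removals (adjusted p up to 0.104, with Gata2cKO replicate 1 left out). Slc38a2, the stress-responsive carrier of system A and the most abundant of the class, was at 267, 263 and 267 TPM in Gata2cKO replicates 1 to 3, against 259, 283 and 267 TPM in control replicates 1 to 3, with overlapping groups (limma log2 fold change -0.02 with SE 0.07, adjusted p = 0.879). Its direction was positive without control replicate 2. Slc38a1 was at 12.2 ± 0.942 against 11.7 ± 0.779 TPM in Gata2cKO and control libraries (limma adjusted p = 0.751).

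Slc1a4, which exchanges alanine, serine and cysteine (ASCT1), rose 1.56-fold. It was at 15.3, 15.8 and 14.4 TPM in Gata2cKO replicates 1 to 3, against 9.80, 9.98 and 9.41 TPM in control replicates 1 to 3, with the groups well apart and little spread inside each. The means were 15.2 ± 0.727 TPM in Gata2cKO and 9.73 ± 0.291 TPM in control libraries (SD, n = 3 each) (limma log2 fold change 0.59 with SE 0.08, adjusted p = 0.0113), and the call was lost in 1 removal, with Gata2cKO replicate 1 left out (adjusted p = 0.0556). Its relative Slc1a5 (ASCT2), a glutamine exchanger, was at 41.3, 35.6 and 26.3 TPM in Gata2cKO replicates 1 to 3, against 25.5, 26.4 and 38.3 TPM in control replicates 1 to 3 (limma adjusted p = 0.585), and its groups overlapped. Slc6a17, a vesicular carrier of neutral amino acids known from neurons, rose 1.82-fold, at 9.05, 10.2 and 10.2 TPM in Gata2cKO replicates 1 to 3, against 6.28, 5.03 and 4.87 TPM in control replicates 1 to 3. All Gata2cKO values exceeded the controls (limma log2 fold change 0.76 with SE 0.11, adjusted p = 0.0125), and the call was lost without Gata2cKO replicate 2 or 3 (adjusted p = 0.0505 and 0.0532). The neuronal and glial marker sums given with Slc18a3 stand beside this gene too.

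Of the SLC7 family, which exchanges cationic and neutral amino acids, 0 of 11 members by name passed in limma or in the authors' deposited table, Slc7a6os, a non-transporter, among them. Of all tested genes 7.47% passed in limma and 14.1% in the authors' deposited table. Slc3a2, the heavy chain that brings SLC7 partners to the cell surface, was at 61.1 ± 3.60 against 63.8 ± 11.3 TPM in Gata2cKO and control libraries. Its partner Slc7a5 (LAT1), an importer of large neutral amino acids, was at 18.5 ± 2.13 against 18.2 ± 1.23 TPM (limma adjusted p = 0.910). Slc7a4, without a known transport function, was at 18.2, 16.6 and 18.1 TPM in Gata2cKO replicates 1 to 3, against 18.2, 9.13 and 10.1 TPM in control replicates 1 to 3, so control replicate 1 stood with the Gata2cKO libraries and above the other 2 controls. Without that library its adjusted p in limma was 0.00387. In that removal 12.5% of all tested genes passed, against 7.47% with all 6 libraries. In the list of the amino acid stress response, driven by the factor ATF4, the median log2 fold change of 16 tested genes was 0.12. Of these 1 rose and 0 fell, beside 5.73% higher and 1.74% lower of all tested genes. The 1 was Cth, which makes cysteine from cystathionine (3.44 ± 0.0912 against 1.99 ± 0.170 TPM; limma adjusted p = 0.0139, up to 0.0718 over the removals). Atf4 itself was at 759 ± 53.7 against 794 ± 69.2 TPM (limma adjusted p = 0.720).

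**Figure D2:**
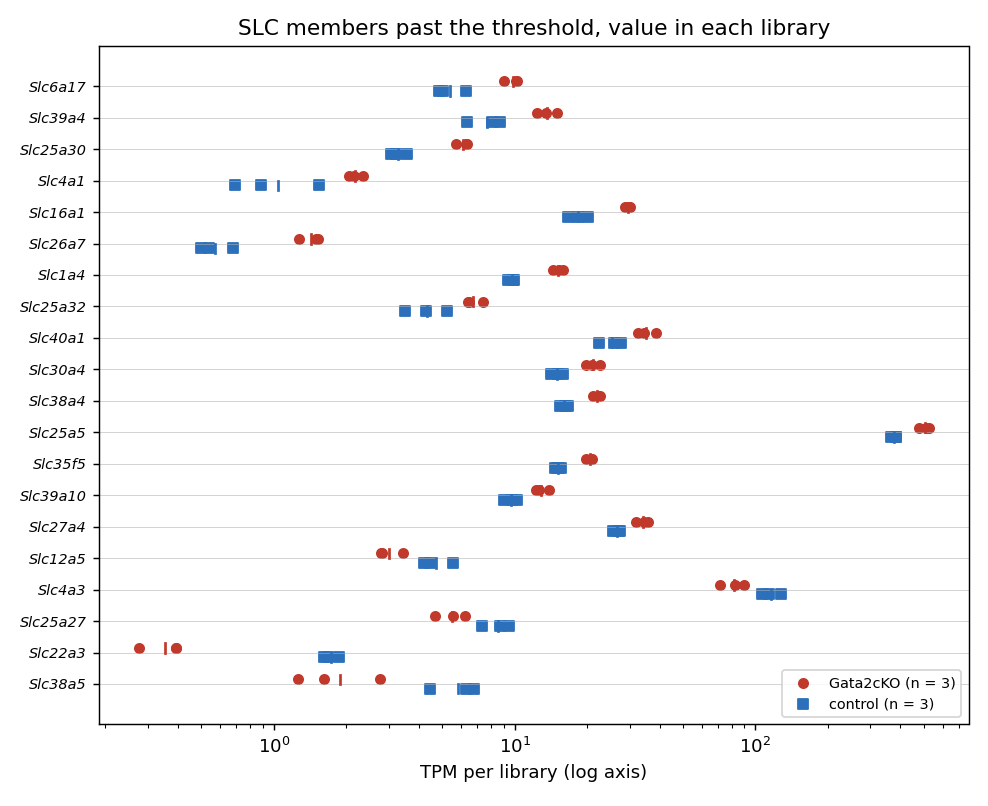
TPM in each library (log axis) of the 20 SLC members past the threshold, with red circles for 3 Gata2cKO and blue squares for 3 control libraries, vertical ticks at the group means, and genes ordered by log2 fold change. The 15 upper genes have all red points right of all blue points, and the 5 lower genes have them left, with the widest gap for Slc22a3.

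Metal and heme carriers had the highest class median, 0.20, and 4 of 28 members rose and 0 fell (14.3% called, beside 7.47% of all tested genes). The class summed to 647, 690.2 and 639 TPM in Gata2cKO replicates 1 to 3, all above 549, 574 and 578 TPM in control replicates 1 to 3. In 23 of the 28 members the log2 fold change was positive (82.1%, beside 59.5% of all tested genes). Under median-of-ratios scaling it was positive in 19 (67.9%, beside 49.4% of all tested genes), 2 members passed as higher and the class median was 0.14. Groups did not overlap for 11 higher and 1 lower member (42.9%, beside 33.9% of all tested genes). No test was made of the class as a whole.

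Slc39a4 (ZIP4), which imports zinc at the surface of absorptive epithelia, rose 1.77-fold. It was at 13.5, 12.3 and 15.01 TPM in Gata2cKO replicates 1 to 3, against 6.34, 8.02 and 8.73 TPM in control replicates 1 to 3. The lowest Gata2cKO value was above the highest control (limma log2 fold change 0.76 with SE 0.13, adjusted p = 0.0184), and the call was lost in 4 removals (adjusted p up to 0.0775, with Gata2cKO replicate 1 left out). Slc39a10 (ZIP10), a plasma membrane zinc importer, was at 13.8, 12.2 and 12.6 TPM in Gata2cKO replicates 1 to 3, against 10.2, 9.78 and 9.06 TPM in control replicates 1 to 3 (1.33-fold higher; limma log2 fold change 0.38 with SE 0.09, adjusted p = 0.0440). Slc30a4 (ZnT4), which loads zinc into vesicles, was at 22.7, 19.8 and 20.9 TPM in Gata2cKO replicates 1 to 3, against 15.1, 15.9 and 14.2 TPM in control replicates 1 to 3 (1.40-fold higher; limma log2 fold change 0.46 with SE 0.09, adjusted p = 0.0265). For both genes the groups did not overlap. Their calls held only without control replicate 1, with highest adjusted p 0.171 and 0.115, each with Gata2cKO replicate 1 left out.

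Slc40a1, ferroportin, the exporter of iron from cells, rose 1.39-fold, at 38.7, 32.5 and 34.5 TPM in Gata2cKO replicates 1 to 3, against 27.7, 25.9 and 22.3 TPM in control replicates 1 to 3 (limma log2 fold change 0.46 with SE 0.11, adjusted p = 0.0433; adjusted p = 0.156 with Gata2cKO replicate 1 left out). Its groups did not overlap. Ferroportin is abundant in macrophages, whose markers summed to between 518 and 575 TPM in Gata2cKO and between 391 and 487 TPM in control libraries (2 of 12 tested rose). The part of those cells in this value was not tested. The iron importer Slc11a2 (DMT1) did not pass, at 6.75 ± 0.920 against 7.19 ± 0.871 TPM in Gata2cKO and control libraries (limma adjusted p = 0.707). The copper importer Slc31a1 (CTR1) was at 16.5 ± 0.846 against 14.0 ± 0.257 TPM (limma adjusted p = 0.114). Slc48a1, which moves heme out of endosomes, was at 61.5 ± 3.08 against 49.8 ± 3.09 TPM with groups that did not overlap and adjusted p = 0.0686 in limma. Without control replicate 1 its limma adjusted p was 0.0379, in a removal where 12.5% of all tested genes passed.

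Over both zinc families 3 of 20 members passed, all higher (5.73% of all tested genes passed as higher), and 16 had a positive log2 fold change (80%, beside 59.5% of all tested genes). Under median-of-ratios scaling 2 passed and 14 were positive. The 12 ZIP members summed to 394 ± 20.7 TPM in Gata2cKO and 351 ± 27.7 TPM in controls. The 8 ZnT members summed to 119.9 ± 4.45 TPM in Gata2cKO libraries and 98.4 ± 8.43 TPM in controls (SD, n = 3 each). Slc39a1 (ZIP1) was the most abundant, at 189.6, 207 and 208 TPM in Gata2cKO replicates 1 to 3, against 156, 187 and 186 TPM in control replicates 1 to 3 (limma log2 fold change 0.20 with SE 0.10, adjusted p = 0.238). Slc30a1, the plasma membrane zinc exporter that cells raise when zinc is high, was at 29.7, 37.5 and 28.4 TPM in Gata2cKO replicates 1 to 3, against 28.1, 17.5 and 20.4 TPM in control replicates 1 to 3 (limma adjusted p = 0.110), with control replicate 1 just under the lowest Gata2cKO value. Without that library its adjusted p was 0.0193, in a removal where 12.5% of all tested genes passed. Slc30a3, a synaptic vesicle carrier near the minimum level, ran the other way at 0.684 ± 0.0728 against 1.17 ± 0.147 TPM (limma adjusted p = 0.0595). All its Gata2cKO values were below 1 TPM, so it met the 1 TPM minimum only through the control group, where it is high.

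**Figure D3:**
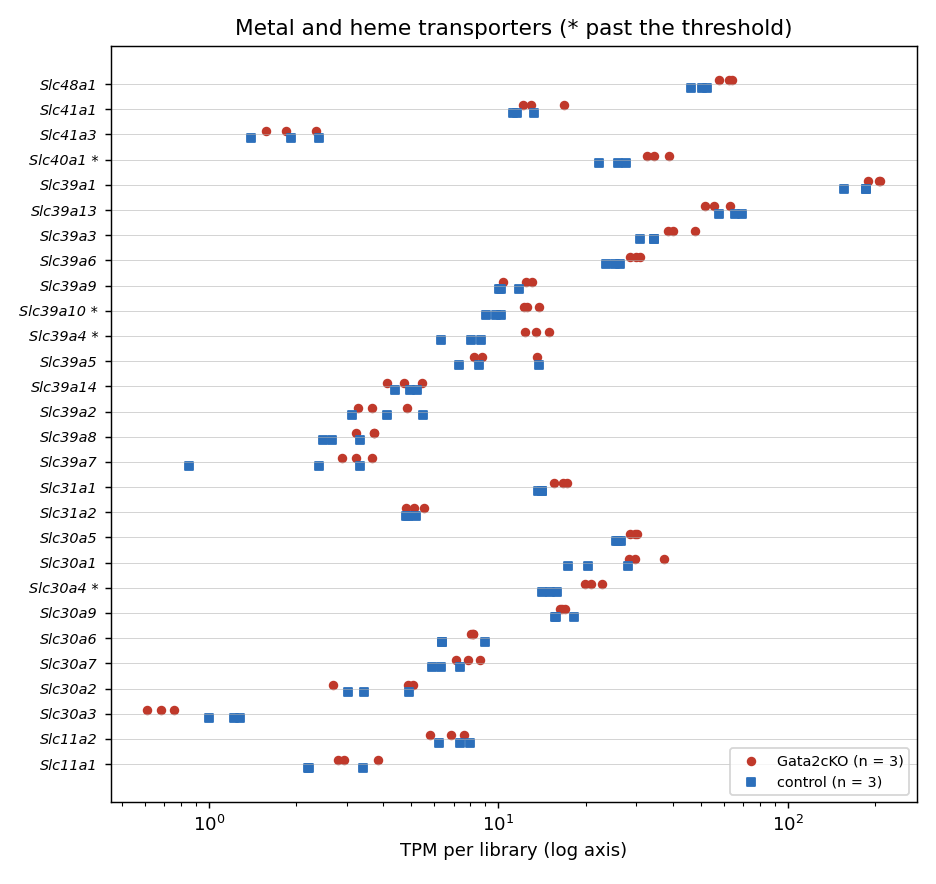
TPM in each library (log axis) of the 28 metal and heme carriers, grouped by family and ordered by level, with red circles for Gata2cKO and blue squares for control libraries; asterisks mark genes past the threshold. Slc39a4, Slc39a10, Slc30a4 and Slc40a1 have all red points to the right of the blue ones, and Slc39a1 has the highest level.

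The 36 mitochondrial carriers held 42.1% of the summed TPM of all members. Of them 3 rose and 1 fell (11.1% called, beside 7.47% of all tested genes), with a class median of 0.07. Slc25a30, a carrier first described in kidney mitochondria, rose 1.86-fold and lies on chromosome 14, 75760117 to 75787037. It was at 6.26, 6.35 and 5.73 TPM in Gata2cKO replicates 1 to 3, against 3.57, 3.23 and 3.06 TPM in control replicates 1 to 3. The groups were far apart relative to their spread (6.11 ± 0.334 TPM in Gata2cKO and 3.28 ± 0.261 TPM in control libraries (SD, n = 3 each); limma log2 fold change 0.73 with SE 0.09, adjusted p = 0.00971). With Slc22a3 it was one of 2 members whose call no single removal ended (adjusted p up to 0.0495, with Gata2cKO replicate 1 left out).

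Slc25a5 and Slc25a4 encode ADP/ATP carriers, which exchange cytosolic ADP for mitochondrial ATP, Slc25a5 in dividing cells and Slc25a4 mainly in heart and muscle. Slc25a5 was at 509.8, 476 and 525 TPM in Gata2cKO replicates 1 to 3, against 382, 364 and 383 TPM in control replicates 1 to 3. All Gata2cKO values lay above all controls (1.34-fold higher; limma log2 fold change 0.42 with SE 0.08, adjusted p = 0.0250; adjusted p = 0.115 with Gata2cKO replicate 1 left out). Slc25a5 has many processed pseudogenes and close paralogs, so its value is uncertain where reads could be shared. Slc25a4, the most abundant member of all, was at 869.8, 854 and 862 TPM in Gata2cKO replicates 1 to 3, against 578, 839 and 861 TPM in control replicates 1 to 3 (limma log2 fold change 0.21 with SE 0.15, adjusted p = 0.424). The low control value was that of replicate 1, and the other 2 controls were close to the Gata2cKO libraries. The phosphate carrier Slc25a3 was at 430.4 ± 12.3 against 427 ± 21.4 TPM in Gata2cKO and control libraries (limma adjusted p = 0.928).

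Slc25a32, which brings folate and FAD into mitochondria, was at 6.38, 7.36 and 6.45 TPM in Gata2cKO replicates 1 to 3, against 4.28, 5.22 and 3.51 TPM in control replicates 1 to 3 (1.55-fold higher; limma log2 fold change 0.55 with SE 0.13, adjusted p = 0.0464). Its call held only without control replicate 2 (adjusted p up to 0.130, with Gata2cKO replicate 1 left out). Slc25a27, known as uncoupling protein 4 of brain, fell and was at 6.24, 5.53 and 4.65 TPM in Gata2cKO replicates 1 to 3, against 9.52, 7.31 and 8.66 TPM in control replicates 1 to 3 (1.55-fold lower; limma log2 fold change -0.55 with SE 0.13, adjusted p = 0.0435), and it lost its call in each of the 6 removals (adjusted p up to 0.130, with Gata2cKO replicate 3 left out). The groups did not overlap for either gene. Slc25a37 (mitoferrin 1), the iron importer of erythroid mitochondria, was at 6.70 ± 0.766 against 8.55 ± 0.176 TPM in Gata2cKO and control libraries (limma adjusted p = 0.0859). The authors' deposited table calls it lower (adjusted p = 0.00806).

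Carriers of cations, chloride and acid or base changed in both directions, with 2 of 25 members higher and 2 lower (16.0% called, beside 7.47% of all tested genes, 5.73% higher and 1.74% lower) and a class median of 0.01. The median was -0.04 under median-of-ratios scaling. Slc4a3 (AE3), which exchanges chloride for bicarbonate and is the most abundant of the class, fell. It was at 82.2, 90.0 and 71.3 TPM in Gata2cKO replicates 1 to 3, against 107, 113 and 128 TPM in control replicates 1 to 3, and the groups did not overlap (1.43-fold lower; limma log2 fold change -0.51 with SE 0.11, adjusted p = 0.0371; adjusted p = 0.124 with Gata2cKO replicate 1 left out). Its relative Slc4a2 (AE2) was at 40.8 ± 6.49 against 37.6 ± 0.458 TPM in Gata2cKO and control libraries (limma adjusted p = 0.588).

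Slc26a7, an anion exchanger of epithelia such as kidney, stomach and thyroid, rose 2.50-fold. It was at 1.53, 1.27 and 1.49 TPM in Gata2cKO replicates 1 to 3, against 0.676, 0.538 and 0.5001 TPM in control replicates 1 to 3. These are low values, and the gene met the 1 TPM minimum only through the Gata2cKO group, where it is high. The groups did not overlap (limma log2 fold change 0.63 with SE 0.09, adjusted p = 0.0139; authors' deposited table, log2 fold change 1.28). The call was lost in 4 removals (adjusted p up to 0.0714, with Gata2cKO replicate 1 left out). Slc12a5 (KCC2), the potassium and chloride exporter of neurons, fell and was at 2.82, 3.43 and 2.79 TPM in Gata2cKO replicates 1 to 3, against 5.53, 4.19 and 4.46 TPM in control replicates 1 to 3 (1.57-fold lower; limma log2 fold change -0.51 with SE 0.12, adjusted p = 0.0436; adjusted p = 0.153 with Gata2cKO replicate 1 left out). Slc12a2 (NKCC1), which imports the same ions with sodium, was at 14.0, 12.5 and 14.8 TPM in Gata2cKO replicates 1 to 3, against 11.9, 10.5 and 9.81 TPM in control replicates 1 to 3 (limma adjusted p = 0.0878, or 0.0383 without control replicate 1), and its groups did not overlap. In the removal of control replicate 1, 12.5% of all tested genes passed.

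Slc4a1, the band 3 anion exchanger of red cells and kidney, rose 2.10-fold, at 2.16, 2.34 and 2.05 TPM in Gata2cKO replicates 1 to 3, against 1.55, 0.687 and 0.886 TPM in control replicates 1 to 3 (limma log2 fold change 0.66 with SE 0.15, adjusted p = 0.0438). Control replicate 1 was the highest control, and the call held only without it (adjusted p = 0.00449; 0.135 with Gata2cKO replicate 1 left out). Erythroid markers summed to 12088, 13840.3 and 10538 TPM in Gata2cKO replicates 1 to 3 and 18295, 6879 and 7831 TPM in control replicates 1 to 3. None of the 9 tested erythroid markers passed in limma, and control replicate 1 had the highest sum. Their part in Slc4a1 was not tested.

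Slc16a1 (MCT1), which carries lactate, pyruvate and ketone bodies with a proton, was the 1 of 10 monocarboxylate and dicarboxylate carriers that passed. That is 10% called, beside 7.47% of all tested genes, with a class median log2 fold change of 0.12. Slc16a1 was at 30.0, 28.8 and 29.9 TPM in Gata2cKO replicates 1 to 3, against 16.6, 20.2 and 18.4 TPM in control replicates 1 to 3. The lowest Gata2cKO value was well above the highest control, the means being 29.6 ± 0.669 TPM in Gata2cKO and 18.4 ± 1.79 TPM in control libraries (SD, n = 3 each) (1.61-fold higher; limma log2 fold change 0.66 with SE 0.09, adjusted p = 0.0116). The call was lost in 1 removal, with Gata2cKO replicate 1 left out (adjusted p = 0.0556). Slc16a3 (MCT4), the lactate exporter of glycolytic cells and the most abundant of the class, was at 59.2, 63.2 and 55.5 TPM in Gata2cKO replicates 1 to 3, against 49.4, 58.7 and 53.7 TPM in control replicates 1 to 3 (limma adjusted p = 0.383), and its groups overlapped. The ratio of Slc16a1 to Slc16a3 was 0.507, 0.456 and 0.539 in Gata2cKO replicates 1 to 3 and 0.336, 0.344 and 0.342 in control replicates 1 to 3.

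Genes for proteins that fold, anchor or regulate SLC carriers were examined as a list of 22, of which 20 were tested. Their median log2 fold change was 0.14, beside 0.05 for all tested genes. Of the 20, 3 rose and 0 fell, beside 5.73% higher and 1.74% lower of all tested genes. Emb, embigin, a chaperone of monocarboxylate carriers, was at 6.399, 4.67 and 4.56 TPM in Gata2cKO replicates 1 to 3, against 2.79, 1.77 and 1.42 TPM in control replicates 1 to 3 (2.62-fold higher; limma log2 fold change 1.07 with SE 0.19, adjusted p = 0.0202). All Gata2cKO values lay above all controls, and the call was lost in 5 of the 6 removals (adjusted p up to 0.0777). Chp1, a calcium-binding protein, was at 17.4 ± 0.378 against 12.2 ± 0.610 TPM in Gata2cKO and control libraries (limma adjusted p = 0.0175, up to 0.0730 over the removals). Tmem27, collectrin, which carries amino acid transporters to the surface of the renal tubule, was at 3.22 ± 0.152 against 2.02 ± 0.259 TPM (limma adjusted p = 0.0298, up to 0.104 over the removals), beside the sums of renal tubule markers given above. Bsg, basigin, the main chaperone of Slc16a1 and Slc16a3 and the most abundant of the list, was at 579 ± 16.0 against 515 ± 71.0 TPM (limma adjusted p = 0.345).

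For SLC families that go under other symbols, 15 genes of a list of 25 were tested (median log2 fold change 0.05). Among them 1 rose and 0 fell, beside 5.73% higher and 1.74% lower of all tested genes. The 1 was Spns2, the exporter of sphingosine 1-phosphate, at 6.93, 7.79 and 6.34 TPM in Gata2cKO replicates 1 to 3, against 4.14, 3.73 and 4.62 TPM in control replicates 1 to 3 (1.69-fold higher; limma log2 fold change 0.63 with SE 0.11, adjusted p = 0.0184). Its groups did not overlap, and the call was lost in 3 removals (adjusted p up to 0.0798). Mtch1, a relative of the SLC25 family in the outer mitochondrial membrane and the most abundant of the list, was at 230.4 ± 12.4 against 192 ± 38.7 TPM (limma adjusted p = 0.261).

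Nucleotide sugar and acetyl-CoA carriers had 1 of 24 members higher and 0 lower (4.17% called, beside 7.47% of all tested genes) and a class median of 0.15. Slc35f5, whose substrate is not settled, was at 20.9, 19.9 and 20.8 TPM in Gata2cKO replicates 1 to 3, against 14.7, 15.5 and 15.1 TPM in control replicates 1 to 3 (1.36-fold higher; limma log2 fold change 0.42 with SE 0.07, adjusted p = 0.0212; adjusted p = 0.103 with Gata2cKO replicate 1 left out). The spread within each group was small and the groups did not overlap. The class sum was 819, 847 and 807 TPM in Gata2cKO replicates 1 to 3 and 749, 751 and 787 TPM in control replicates 1 to 3. These sums did not overlap in TPM as given, but mitochondrially encoded transcripts took 21.9% of TPM in control replicate 1. Leaving mitochondrial genes out of the total raises TPM 1.28-fold in control replicate 1 and 1.16-fold in Gata2cKO replicate 3. The sum of control replicate 1 is then above that of Gata2cKO replicate 3, so the groups overlap. Under median-of-ratios scaling the median log2 fold change of the class was 0.09. Its most abundant member, Slc35a4, was at 228 ± 19.9 against 231 ± 25.2 TPM in Gata2cKO and control libraries (limma adjusted p = 0.952; the log2 fold change turned positive without control replicate 2, control replicate 3 or Gata2cKO replicate 3). Slc35b2, the carrier of the sulfate donor, was at 239 ± 4.03 against 205 ± 11.2 TPM (limma adjusted p = 0.117).

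Of 6 fatty acid and bile acid carriers 1 rose and 0 fell (16.7% called, beside 7.47% of all tested genes). The 1 was Slc27a4 (FATP4), which activates and takes up long-chain fatty acids. It was at 31.9, 35.7 and 34.3 TPM in Gata2cKO replicates 1 to 3, against 25.5, 27.0 and 27.3 TPM in control replicates 1 to 3 (1.28-fold higher; limma log2 fold change 0.34 with SE 0.08, adjusted p = 0.0438). The groups did not overlap, the call held only without control replicate 1 (adjusted p = 0.137 with Gata2cKO replicate 3 left out), and the authors' deposited table gives an adjusted p of 0.0509. The most abundant of the class, Slc27a3, was at 58.9 ± 4.37 against 55.4 ± 1.56 TPM in Gata2cKO and control libraries (limma adjusted p = 0.542).

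No member passed in limma among 13 carriers of sugars and polyols, 12 of vitamins and choline, 5 of nucleosides or 4 of phosphate and sulfate. Of all tested genes 7.47% passed, a share at which classes this small hold few calls or none. Unadjusted, 65 of all 212 members had p under 0.05 (30.7%, beside 27.4% of all tested genes). Slc2a1 (GLUT1), the general glucose importer, was at 29.1, 29.9 and 26.3 TPM in Gata2cKO replicates 1 to 3, against 18.8, 26.1 and 26.8 TPM in control replicates 1 to 3 (limma adjusted p = 0.282). Control replicate 1 was the low value, and the other 2 controls lay close to the lowest Gata2cKO library. Slc2a4 (GLUT4), the insulin-responsive importer, was at 44.3 ± 2.61 against 44.2 ± 6.73 TPM in Gata2cKO and control libraries (limma adjusted p = 0.955). The smallest p of the sugar class was that of Slc37a4, the glucose 6-phosphate carrier of the endoplasmic reticulum, at 45.0, 36.7 and 47.3 TPM in Gata2cKO replicates 1 to 3, against 33.2, 24.7 and 33.8 TPM in control replicates 1 to 3 (limma adjusted p = 0.0845), with no overlap of the groups.

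In the other classes without a call, Slc44a1, a choline carrier, was at 6.50 ± 0.215 against 4.96 ± 0.476 TPM in Gata2cKO and control libraries. Slc29a1 (ENT1), the equilibrative nucleoside carrier, was at 41.2 ± 2.61 against 31.7 ± 3.30 TPM, and Slc20a2, a sodium phosphate carrier, at 6.35 ± 0.381 against 5.01 ± 0.319 TPM. Their limma adjusted p-values were 0.0670, 0.0642 and 0.0831, and the authors' deposited table calls all 3 higher. Groups did not overlap for any of these 3. Slc43a3, a carrier of purine nucleobases, leaned the other way at 21.9 ± 4.22 against 27.0 ± 1.09 TPM (limma adjusted p = 0.196). It is lower by the authors' deposited table (log2 fold change -0.37, adjusted p = 0.0418). The most abundant members were Slc50a1 for sugars (169 ± 1.54 against 178 ± 6.03 TPM), Slc44a2 for vitamins and choline (67.6 ± 6.99 against 63.3 ± 4.75 TPM), Slc29a1 for nucleosides and Slc20a1 for phosphate (31.0 ± 1.10 against 33.2 ± 1.42 TPM). The non-transporters were Slc9a3r1 and Slc9a3r2, scaffolds that anchor carriers to the cytoskeleton, Slc7a6os and Slc4a1ap. None of the 4 passed; Slc9a3r1 was nearest, at 56.8, 58.0 and 63.2 TPM in Gata2cKO replicates 1 to 3, against 34.9, 46.6 and 49.2 TPM in control replicates 1 to 3 (limma adjusted p = 0.0790), and the most abundant, Slc9a3r2, was at 87.5 ± 6.27 against 87.0 ± 13.4 TPM.

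**Figure D4:**
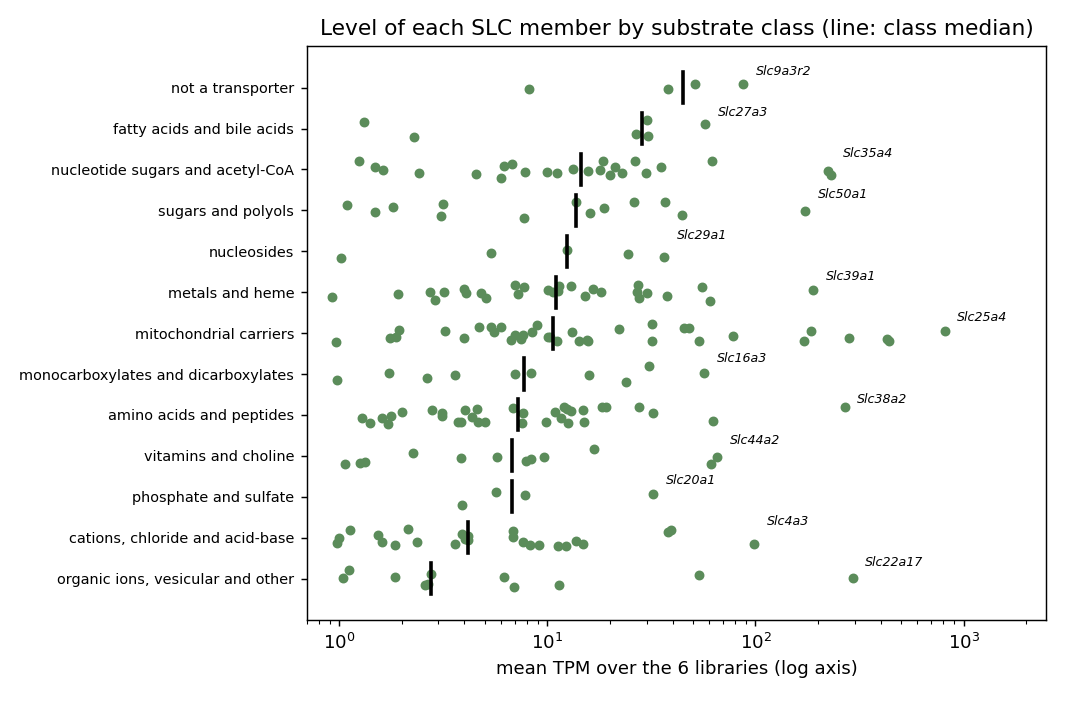
Mean TPM over the 6 libraries (log axis) of each of the 212 members, in rows by substrate class, with a black bar at the class median and the most abundant member named. Slc25a4 has the highest level (811 TPM), and class medians run from 2.78 TPM for organic ion and vesicular carriers to 28.4 TPM for fatty acid and bile acid carriers among true carriers.

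Levels were concentrated in few members. The 10 most abundant held 50.4% of the members' summed TPM, 12 members averaged 100 TPM or more over the 6 libraries and 72 averaged under 5 TPM, 6 of the 20 changed members among them. All members together made up 0.687 ± 0.0181% of the TPM in Gata2cKO and 0.644 ± 0.0415% in control libraries (SD, n = 3 each), lowest in control replicate 1. Mitochondrially encoded transcripts took 21.9% of the TPM in that library. The groups overlapped, with members summing to 6788 TPM in control replicate 3 and to 6751 and 6759 TPM in Gata2cKO replicates 1 and 3. The median SD within a group on the log2(TPM + 1) scale was 0.117 in Gata2cKO and 0.134 in control libraries for members, beside 0.106 and 0.130 for all tested genes. At the minimum of the rule, Slc30a3, Slc25a13 and Slc16a5 were just inside, with third-highest values of 1.002, 1.006 and 1.01 TPM. Slc16a9, Slc1a6 and Slc16a12 were just outside, at 0.9998, 0.977 and 0.971 TPM, among 57 SLC rows under it.

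The changed members were spread over 9 chromosomes. None was overlapped by another gene with values in the table, and whether counting used strand is not stated. The 12 changed members that were most sensitive to single libraries lost their call in 5 or 6 of the 6 removals, with highest adjusted p between 0.103 and 0.171. Of these, 10 held only without control replicate 1 and Slc25a32 only without control replicate 2. Removing Gata2cKO replicate 1 left 3 of the 20, namely Slc22a3, Slc25a30 and Slc6a17.

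**Figure D5:**
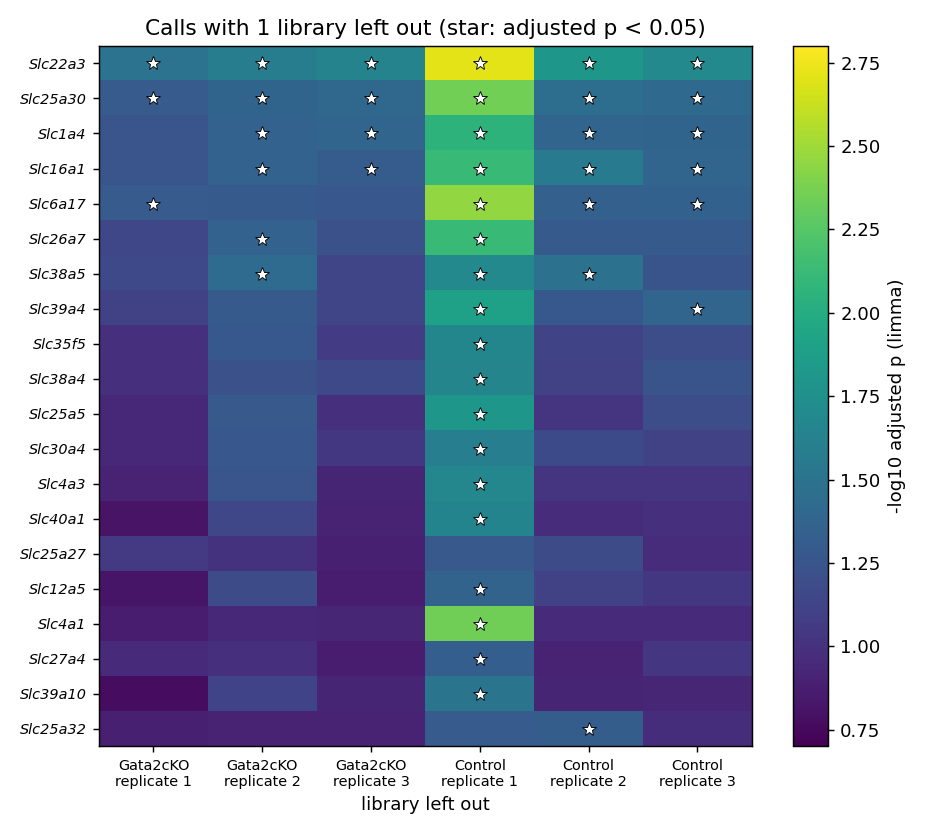
Limma adjusted p, as its negative log10, of the 20 changed members (rows, smallest adjusted p at the top) after each library was left out (columns, the 3 Gata2cKO and then the 3 control libraries), with a star where it stayed under 0.05. Slc22a3 and Slc25a30 have stars in all 6 columns, and the column without control replicate 1 has the most stars, 18.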

How the data were processed

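The authors' deposited gene table gave 1 value per gene and library for 6 libraries, and these values were taken to be TPM from their column totals. Per the submitters' processing notes STAR 2.7.11a, DESeq2 and DESeq were used with GRCm38, with no roles given; the quantifier and gene filter are not named there. Beside them the authors gave a log2 fold change, p-value and adjusted p-value per gene. Columns were assigned through the library name in the labels. TPM keeps no read depth, so no counting interval is given and error is the spread of replicates.

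Genes at 1 TPM or more in at least 3 of 6 libraries were fitted with limma 3.58.1 in R 4.3.3 (log2(TPM + 1), variances that follow the mean, 1 group term), with Benjamini-Hochberg adjustment over 12300 genes and a two-sided threshold of 0.05. The fit was tested on simulated data. Fold values are ratios of mean TPM. Positions are those of GENCODE M21 (GRCm38), matched by identifier for all 212 members, and promoters are RefSeq's.

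Members, substrate classes and lists were chosen with earlier results of these data known; Slc4a1ap was moved to the non-transporters after its values were seen. The naming rule takes every called member, the most abundant of each class and, in classes without a call, the member with the smallest p. From the lists of partners, other symbols and stress response it takes called genes and the most abundant; cell type lists are given by counts and sums. Other genes named were chosen after their values were seen. Alternatives were another pseudocount, no filter, other scalings, no variance trend, a replicate block, each library left out and the authors' p-values. The values of 1 member are not reported here.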

Additional observations from a re-analysis of the deposited data

How the results depend on the processing

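Of 20 changed members, 19 kept their call with a pseudocount of 0.1, 20 without a variance trend, 14 without the filter, 14 with median-of-ratios scaling, 12 without mitochondrial genes in the total and 19 by the authors' deposited p-values, each in the same direction. Members higher in Gata2cKO numbered 9 with median-of-ratios scaling and 9 without mitochondrial genes in the total, against 15, and between 2 and 25 when 1 library was left out. Members lower numbered 3 without mitochondrial genes in the total, 13 by the authors' deposited p-values, and between 1 and 6 when 1 library was left out, against 5. Removals leave 5 libraries and fewer degrees of freedom; the cause of the other differences was not tested. All tested genes called ranged from 116 without Gata2cKO replicate 1 to 1539 without control replicate 1. None of the 20 changed members turned in direction under any alternative run. Of 47 other named genes, the log2 fold change of 13 turned under at least 1 alternative, and that of 34 did not. With median-of-ratios scaling it was -0.0446 for Slc9a3r2, -0.0222 for Slc22a5, -0.00542 for Slc38a1, -0.0365 for Slc7a5, -0.0482 for Slc25a3 and -0.047 for Slc2a4. Without mitochondrial genes in the total it was -0.0435 for Slc9a3r2, -0.0217 for Slc22a5, -0.00449 for Slc38a1, -0.0356 for Slc7a5, -0.0471 for Slc25a3 and -0.046 for Slc2a4. In the authors' deposited table it is -0.0552 for Slc9a3r2, -0.0191 for Slc22a5, -0.00335 for Slc38a1, -0.0355 for Slc7a5, -0.047 for Slc25a3 and -0.053 for Slc2a4. When 1 library was left out it ranged from -0.0497 to 0.0148 for Slc38a2, -0.11 to 0.11 for Slc9a3r2, -0.10 to 0.0538 for Slc35a4, -0.0201 to 0.17 for Slc6a8, -0.0414 to 0.11 for Slc22a5, -0.20 to 0.056 for Slc3a2, -0.0653 to 0.0766 for Slc7a5, -0.17 to 0.0113 for Slc11a2, -0.0279 to 0.041 for Slc25a3, -0.0192 to 0.17 for Slc4a2, -0.10 to 0.11 for Slc2a4 and -0.14 to 0.11 for Gata2.

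Same-numbered libraries of the groups deviated from their group means with correlations of 0.245, -0.0731 and 0.0384 across genes for numbers 1, 2 and 3. Only those of number 1 correlated best with each other. These values cannot settle whether same-numbered samples share a litter or batch, since deviations within a group of 3 are tied together. The labels do not say. With the replicate number as a block, 14 members were higher and 3 lower, and 16 of the 20 calls were kept. TPM does not show depth, which limits the low members most: changes of genes near 1 TPM, such as Slc22a3, Slc26a7 and Slc4a1, rest on few transcripts.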

Other observations

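Single libraries differed in how often they held the highest or lowest of the 6 values of a member. Gata2cKO replicate 2 was highest for 32.1% of the 212 members (27.9% of all tested genes), and control replicate 1 was lowest for 25.9% (30.4% of all tested genes). The ratio of Slc25a5 to Slc25a4, the 2 ADP/ATP carriers, was 0.586, 0.558 and 0.609 in Gata2cKO replicates 1 to 3 and 0.660, 0.434 and 0.445 in control replicates 1 to 3. Control replicate 1 had the highest ratio of the 6, so the groups overlapped although Slc25a5 itself did not.

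Among SLC rows under the minimum level, which were not tested, Slc16a9 was at 1.01, 1.03 and 0.9998 TPM in Gata2cKO replicates 1 to 3 and 0.516, 0.584 and 0.554 TPM in control replicates 1 to 3.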
